A study of Mus musculus with 20 samples.

Results

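The p53 target genes examined here are 36 named mouse genes, Trp53 itself and 35 genes known as its targets, and their transcript levels were followed in bulk RNA-seq of 20 mouse livers. They were found in the count table by gene name, all 36 were present among its 55421 genes, and all 36 were among the 22867 genes with at least 10 counts in total that were tested. The livers fell into 4 groups of 5. Wildtype C57BL/6 mice, labelled female, received at 6 months of age an AAV8 vector that carried saCas9, a small Cas9 nuclease, under the hepatocyte-specific Tbg promoter, and a guide RNA under U6. The guide was directed against Hira, the gene of a chaperone that places histone H3.3 in chromatin, or against Rosa26, a neutral locus, and livers were taken 3 weeks or 6 months later. All 4 groups thus received the vector with the nuclease and a guide, editing was not measured in these data, and no uninjected mice were among the 20 libraries. The later groups were also older at harvest, so time after injection and age cannot be told apart.

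p53 is a transcription factor that is kept low by the ubiquitin ligase MDM2 and is stabilised when DNA is broken or growth signals are out of balance. It then raises the transcription of genes that stop the cell cycle, start cell death, repair DNA or adjust metabolism, and of Mdm2, which closes the loop. In liver the transcript of its target Cdkn1a, which encodes the cell cycle inhibitor p21, is also known to respond to feeding, injury and time of day.

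Total counts per library ran from 19916430 to 24079736. The targeted gene Hira had 87 to 127 counts in the HIRA group and 128 to 171 in the Rosa26 group at 3 weeks (log2 fold change -0.48 ± 0.14 (SE), adjusted p 0.197), and the groups overlapped at 6 months (-0.10 ± 0.14, adjusted p 0.794). The study reports from a Western blot that HIRA protein was lost with the HIRA guide, and protein was not measured in these data. Replicate 5 of the HIRA group at 6 months had 9 counts of Xist and 2041 counts of Y-linked genes, against at least 6286 and at most 13 in the other 19 libraries, so values without it are given for the members that the results turn on, and leaving it out changed the number of genes called over the whole table from 37 to 83 with time in the Rosa26 arm, from 13 to 25 in the HIRA arm and from 26 to 43 between the guides at 3 weeks. Hepatocyte markers were high in all libraries, with the Alb count at or above 1515073. Adjusted p-values below are from the edgeR quasi-likelihood test over all genes tested, and a gene is called when its adjusted p was under 0.05 and its absolute log2 fold change over 1. Where nothing says otherwise, a fold change is on the log2 scale, its error is the SE, and counts are listed in the order of replicates 1 to 5.

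Promoters were searched first for the p53 half-site consensus, a palindrome of 10 bases of which p53 binds pairs. RefSeq windows of 300 bases, from 250 before to 50 after a start, were given for 27 of the 36 members, 41 windows in all. A half-site was matched in 12 of these 41 windows (29.3%), which belong to 11 members, and in 8.36% of all 32851 windows. A pair of half-sites within 13 bases of each other was matched in 1 member window, the upstream of the 2 Cdkn1a windows, and in 0.0731% of all windows. The other Cdkn1a window, chr17:29093519-29093818, lies at a downstream start and held no half-site. The 9 members with no window were Trp53inp1, Pmaip1, Zmat3, Ddb2, Rrm2b, Xpc, Perp, Pvt1 and Tnfrsf10b. A match is a description of letters, and binding was not measured. The 250 bases before the start are shown for 6 members whose levels differed between the time points, 4 with a match and 2 without, in GRCm38.p6 coordinates, 5′ to 3′ on the gene's strand, with half-site matches in capitals.
Cdkn1a, chr17:29090729-29090978, plus strand: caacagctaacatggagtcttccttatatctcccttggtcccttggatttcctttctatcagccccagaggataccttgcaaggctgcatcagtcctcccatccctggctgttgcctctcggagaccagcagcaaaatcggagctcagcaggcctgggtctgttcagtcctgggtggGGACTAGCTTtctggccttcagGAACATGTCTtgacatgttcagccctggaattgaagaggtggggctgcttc
Mdm2, chr10:117710759-117711008, minus strand: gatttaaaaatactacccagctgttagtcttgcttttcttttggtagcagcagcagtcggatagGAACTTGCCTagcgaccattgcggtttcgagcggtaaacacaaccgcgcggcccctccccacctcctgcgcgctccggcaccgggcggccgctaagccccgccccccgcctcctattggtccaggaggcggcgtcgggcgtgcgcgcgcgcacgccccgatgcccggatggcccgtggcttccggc
Ccng1, chr11:40755287-40755536, minus strand: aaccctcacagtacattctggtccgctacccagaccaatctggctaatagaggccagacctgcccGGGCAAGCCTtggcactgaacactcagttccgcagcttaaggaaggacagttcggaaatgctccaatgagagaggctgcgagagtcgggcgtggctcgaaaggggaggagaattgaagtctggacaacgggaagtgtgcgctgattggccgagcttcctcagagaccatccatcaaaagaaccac
Bax, chr7:45466899-45467148, minus strand: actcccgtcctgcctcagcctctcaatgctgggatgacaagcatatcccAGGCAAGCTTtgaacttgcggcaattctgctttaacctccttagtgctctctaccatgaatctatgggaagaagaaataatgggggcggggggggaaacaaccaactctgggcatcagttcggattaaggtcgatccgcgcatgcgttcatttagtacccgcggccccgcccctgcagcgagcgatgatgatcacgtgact
Eda2r, chrX:97377210-97377459, minus strand: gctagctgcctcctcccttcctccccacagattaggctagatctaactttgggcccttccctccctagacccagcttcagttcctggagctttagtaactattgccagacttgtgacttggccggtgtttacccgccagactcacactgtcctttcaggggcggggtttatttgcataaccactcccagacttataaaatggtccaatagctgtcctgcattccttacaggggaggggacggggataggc
Phlda3, chr1:135765835-135766084, plus strand: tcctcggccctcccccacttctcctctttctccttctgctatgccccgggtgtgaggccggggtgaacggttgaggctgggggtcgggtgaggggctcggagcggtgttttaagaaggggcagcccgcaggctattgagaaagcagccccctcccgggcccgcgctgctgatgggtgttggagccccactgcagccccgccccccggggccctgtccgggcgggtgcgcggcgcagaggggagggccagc

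In the Cdkn1a stretch the half-sites begin 73 and 51 bases before the start and are 12 bases apart. The single half-sites of Mdm2, Ccng1 and Bax begin 186, 185 and 201 bases before theirs. The other members with a match were Aen, Ei24, Rps27l, Sesn1, Trp53, Polk and Abhd4. The 3 windows of Bbc3, the member that was higher at 6 months in the Rosa26 arm, held no match, and neither did those of Eda2r and Phlda3.

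More members passed the test with time than between the guides. The question of the time comparison is how livers with the same guide differed between 3 weeks and 6 months after injection. With the Rosa26 guide, Cdkn1a, Eda2r, Phlda3 and Aen fell by 1.13 to 3.61 on the log2 scale, and Bbc3, a gene of cell death, rose by 0.66. In bulk RNA, fewer cells of a type and less RNA per cell cannot be told apart. The called members were 4 of 36, all lower, against 0.162% of all genes tested. Without replicate 4 of the Rosa26 livers at 6 months 1 member was called, and 2 genes in all. Counted by adjusted p alone, 5 of 36 members passed against 0.324% of all genes, and 4 of 36 were lower against 0.179%. With the HIRA guide 1 of 36 members was called, Eda2r, against 0.0569% of all genes, or 0.0656% by adjusted p alone and 0.0175% for genes that were lower. The median change over the 36 members was -0.20 in the Rosa26 arm and -0.25 in the HIRA arm, and over all genes tested it was 0.00 and 0.03.

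Because the arms gave changes of like direction, their mean was tested as well, a contrast added after the data were seen. By adjusted p, 11 of 36 members fell and none rose, against 1.36% of all genes tested and 0.507% for genes that were lower, and 4 of 36 were called against 0.59%. The 11 were Cdkn1a, Eda2r, Phlda3, Aen, Zmat3, Bax, Tnfrsf10b, Polk, Ccng1, Trp53inp1 and Mdm2. The median change over the members was -0.24, beside 0.02 over all genes. Without replicate 5 of the HIRA livers at 6 months 13 members passed, against 1.93% of all genes, with Sesn2 (-0.49, adjusted p 0.039) and Rps27l (-0.29, 0.0462) added, and Cdkn1a gave -2.50 (0.000344). In the HIRA arm 2 members then passed, Eda2r and Aen, against 0.122% of all genes. By adjusted p DESeq2 gave 15 members in the mean, 14 of them lower, against 4.3% of the genes with an adjusted p, 10 in the Rosa26 arm against 3.22% and 6 in the HIRA arm against 0.885%. With limma on log2(FPKM + 1) Eda2r, Phlda3, Aen and Bbc3 no longer passed in the Rosa26 arm, nor Eda2r in the HIRA arm (adjusted p 0.088 to 0.396), and in the mean over both arms Mdm2, Ccng1, Trp53inp1, Bax, Zmat3, Tnfrsf10b and Polk no longer passed (0.076 to 0.181), with the direction kept. The size of some changes depended on the scale. Over all alternatives the smallest change of Eda2r was -0.31 in the Rosa26 arm and -0.56 in the HIRA arm. That of Tnfrsf10b in the mean was -0.25, while that of Aen in the Rosa26 arm was -0.93.

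**Figure D1:**
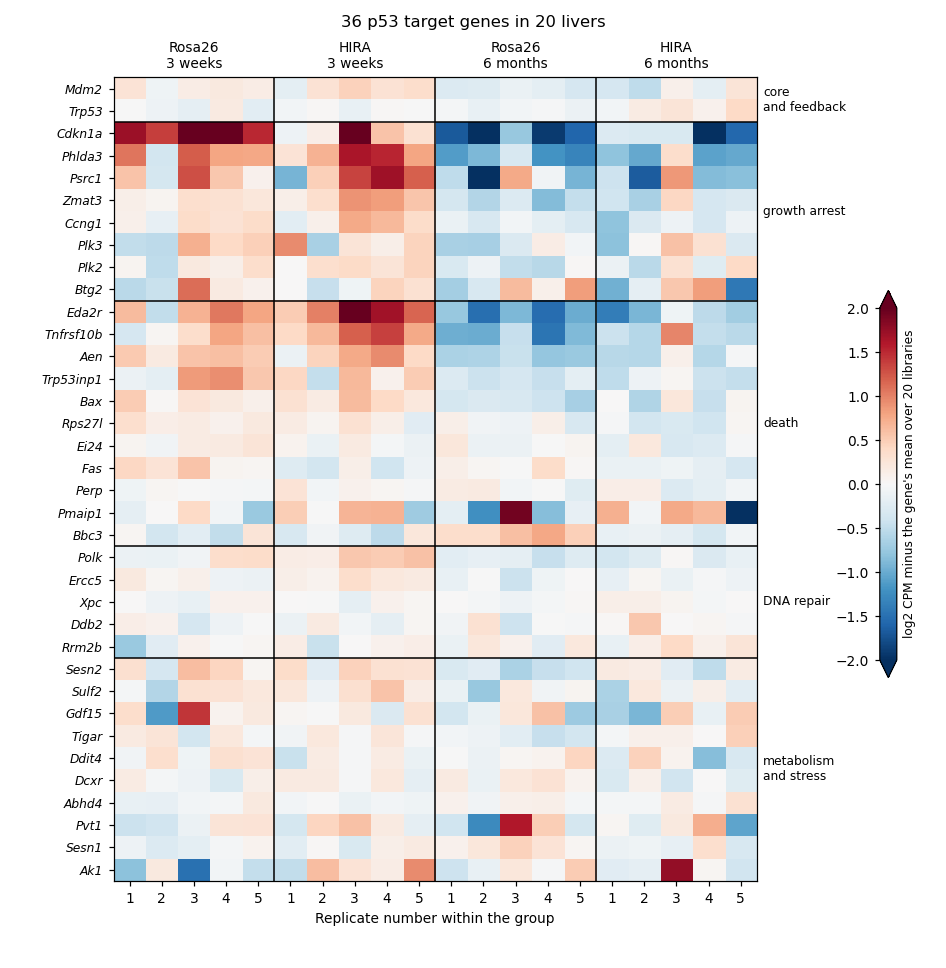
Heat map of the 36 members (rows, by role) in the 20 libraries (columns, by group and replicate), as log2 CPM minus the gene's mean over the 20 libraries, with the colour scale ending at -2 and 2. Cdkn1a, Phlda3, Eda2r, Tnfrsf10b and Aen are mostly red in the 10 libraries at 3 weeks and blue in the 10 at 6 months, while Trp53, Xpc, Perp and Abhd4 are pale throughout.

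Of the 8 growth arrest members, 2 were called in the Rosa26 arm (0.162% of all genes), Cdkn1a and Phlda3, and 4 fell in the mean over both arms (0.507%), these and Zmat3 and Ccng1. Cdkn1a (ENSMUSG00000023067.14, chromosome 17, 29090976 to 29100727, GRCm38) had 1031, 829, 1571, 2676 and 978 counts in the Rosa26 livers at 3 weeks and 115, 75, 217, 89 and 114 at 6 months. In the HIRA livers it had 321, 370, 1328, 541 and 413 counts at 3 weeks and 334, 281, 309, 75 and 104 at 6 months. The 5 libraries at 3 weeks were above the 5 at 6 months in the Rosa26 arm by a wide margin, and in the HIRA arm the lowest at 3 weeks lay just below the highest at 6 months in counts and just above it once library size was taken into account. In the Rosa26 arm Cdkn1a fell by 3.61 ± 0.45, from 66.5 ± 32.6 to 5.42 ± 2.29 CPM (SD, n = 5), which is 12.2-fold (adjusted p 0.00196). In the HIRA arm the change was -1.54 ± 0.42 (adjusted p 0.2), from 28.0 ± 20.6 to 9.53 ± 4.65 CPM (SD, n = 5), and -1.39 ± 0.44 without replicate 5 at 6 months (0.263). The difference between these changes was 2.07 ± 0.59 and missed the threshold over all genes (adjusted p 0.614). The mean over both arms was -2.58 ± 0.31 (adjusted p 0.000245).

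Phlda3 (ENSMUSG00000041801.5, chromosome 1, 135766119 to 135769136), which encodes a PH-domain protein that restrains the kinase AKT, had 121, 44, 147, 112 and 107 counts in the Rosa26 livers at 3 weeks and 30, 32, 53, 26 and 24 at 6 months. In the HIRA livers the counts were 76, 100, 187, 193 and 106 at 3 weeks and 41, 30, 89, 27 and 27 at 6 months. In each arm 1 library overlapped the other time point, replicate 2 of the Rosa26 livers at 3 weeks and replicate 3 of the HIRA livers at 6 months. The change was -1.77 ± 0.34 (adjusted p 0.0303) in the Rosa26 arm, a fall of 3.41-fold, and -1.71 ± 0.34 (adjusted p 0.0588) in the HIRA arm. Without any 1 of replicates 1, 3 and 4 of the Rosa26 livers at 3 weeks or of replicates 1, 4 and 5 at 6 months, the adjusted p in the Rosa26 arm was 0.0639 to 0.0969. In the HIRA arm it was 0.0368 without replicate 2 of the Rosa26 livers at 3 weeks and 0.0457 without replicate 3 of the Rosa26 livers at 6 months, which enter through the shared estimate of the spread, and 0.08 without replicate 5 of the HIRA livers at 6 months (-1.61 ± 0.36).

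Zmat3, which encodes an RNA-binding protein, changed by -0.71 ± 0.18 in the Rosa26 arm (adjusted p 0.0773), by -0.80 ± 0.17 in the HIRA arm (0.105) and by -0.75 ± 0.12 in the mean over both (0.00476). Ccng1, which encodes cyclin G1, a partner of a phosphatase that acts on MDM2, gave -0.40 ± 0.16 (adjusted p 0.27), -0.68 ± 0.16 (0.12) and -0.54 ± 0.11 (0.0207). Without replicate 5 of the HIRA livers at 6 months the HIRA arm gave -0.78 for Zmat3 (0.109) and -0.73 for Ccng1 (0.0913). The other 4 growth arrest members were Btg2, Plk2, Plk3 and Psrc1, with means over both arms from -1.27 (Psrc1, 0 to 30 counts a library) to -0.04 (Btg2) and adjusted p-values of 0.187 to 0.97.

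**Figure D2:**
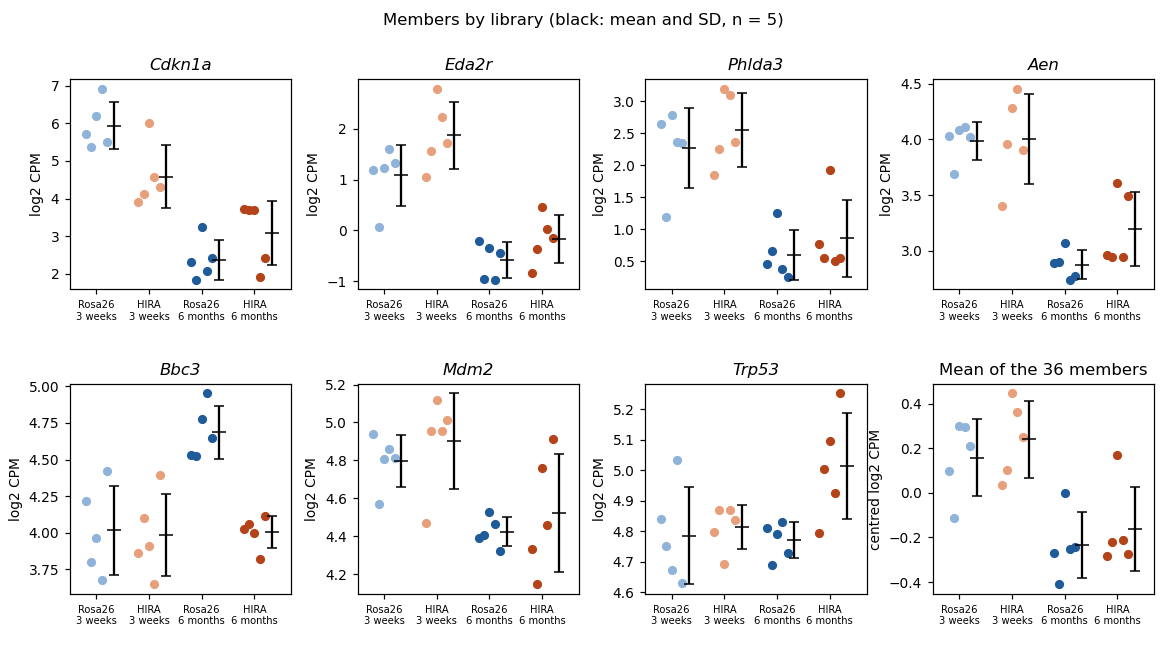
Values of 7 members in each library as log2 CPM, and the mean of the 36 members after each gene was centred on its mean over the 20 libraries, with black bars for the group mean and SD (n = 5). The group means of Cdkn1a, Eda2r, Phlda3 and Aen are lower at 6 months with both guides, though with the HIRA guide Eda2r alone passed. Bbc3 is highest in the Rosa26 livers at 6 months, and Trp53 stays between 4.63 and 5.25.

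Of the 11 members with a role in cell death, 2 were called in the Rosa26 arm (0.162% of all genes), 1 in the HIRA arm (0.0569%), and 5 fell in the mean over both (0.507%). Eda2r (ENSMUSG00000034457.10, chromosome X, 97333840 to 97377216), which encodes a receptor of the TNF receptor family, had 43, 19, 49, 65 and 52 counts in the Rosa26 livers at 3 weeks and 18, 9, 16, 9 and 14 at 6 months. In the HIRA livers it had 43, 61, 141, 105 and 67 counts at 3 weeks and 12, 15, 31, 19 and 16 at 6 months. No library at 6 months reached the lowest at 3 weeks with the same guide. Eda2r fell by 1.86 ± 0.35 in the Rosa26 arm (adjusted p 0.0252), 3.63-fold, and by 2.21 ± 0.34 in the HIRA arm (adjusted p 0.00821), 4.63-fold. Without any 1 of replicates 1, 3 and 4 of the Rosa26 livers at 3 weeks or of replicates 3, 4 and 5 at 6 months, the adjusted p in the Rosa26 arm was 0.0507 to 0.0961, while in the HIRA arm the call was kept without each of the 20 libraries in turn and lost when the 2 groups compared were fitted alone (-2.23, adjusted p 0.0521). Of the 36 members Eda2r was the one called in both arms, and the difference between the arms was -0.35 ± 0.49 (adjusted p 0.948). Without replicate 5 of the HIRA livers at 6 months the change in that arm was -2.20 (adjusted p 0.0201).

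Aen (ENSMUSG00000030609.18, chromosome 7, 78895854 to 78911209), which encodes a nuclease that digests DNA in dying cells, had 321, 257, 364, 381 and 348 counts in the Rosa26 livers at 3 weeks and 171, 158, 193, 142 and 147 at 6 months. The HIRA livers had 227, 330, 399, 499 and 313 counts at 3 weeks and 197, 167, 292, 155 and 220 at 6 months. The Rosa26 groups did not overlap, while in the HIRA arm replicate 1 at 3 weeks fell among the libraries at 6 months. Aen fell by 1.13 ± 0.17 in the Rosa26 arm (adjusted p 0.0131), 2.18-fold, and changed by -0.83 ± 0.17 in the HIRA arm (adjusted p 0.0687). Without replicate 5 of the HIRA livers at 6 months the latter was -0.90 (adjusted p 0.0423), and without replicate 1 of the HIRA livers at 3 weeks it was -0.95 (0.0224). Without replicate 4 of the Rosa26 livers at 6 months the adjusted p in the Rosa26 arm was 0.051.

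The other 3 that fell in the mean over both arms were Bax, the mitochondrial pore former, at -0.56 ± 0.10 (adjusted p 0.0076), Tnfrsf10b, the mouse TRAIL receptor, at -1.22 ± 0.24 (0.0147), and Trp53inp1, which promotes p53 phosphorylation and autophagy, at -0.69 ± 0.15 (0.0232). Their adjusted p-values in the single arms were 0.0506 to 0.0856 with the Rosa26 guide and 0.243 to 0.41 with the HIRA guide. Bax passed in the Rosa26 arm without any 1 of 7 libraries (adjusted p 0.0334 to 0.0484), and Trp53inp1 did not pass in the mean without replicate 4 of the Rosa26 livers at 3 weeks (0.0553) or at 6 months (0.0502). Tnfrsf10b was scarce, with 6 to 58 counts a library. Rps27l, Ei24, Fas, Perp and Pmaip1 gave means between -0.26 and 0.24 with adjusted p-values of 0.0945 to 0.856. Rps27l is a paralogue of the ribosomal protein gene Rps27, and how reads shared by such copies were counted is not given in the sources used here.

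Bbc3 (ENSMUSG00000002083.13, chromosome 7, 16308393 to 16318205), which encodes the BH3-only protein PUMA, went the other way. It had 365, 277, 336, 282 and 459 counts in the Rosa26 livers at 3 weeks and 539, 491, 634, 666 and 545 at 6 months. In the HIRA livers it had 313, 365, 309, 284 and 439 counts at 3 weeks and 415, 364, 383, 287 and 339 at 6 months. The Rosa26 livers at 6 months stood above each of the other 15 libraries. In the Rosa26 arm Bbc3 rose by 0.66 ± 0.14 (adjusted p 0.044), 1.57-fold, and did not pass without any 1 of 11 libraries (adjusted p up to 0.133), and in the HIRA arm the change was 0.00 ± 0.14 (adjusted p 0.994). The difference between the arms was -0.65 ± 0.20 and missed the threshold (adjusted p 0.614).

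Trp53 and its inhibitor Mdm2 form the core of the loop. Trp53 (ENSMUSG00000059552.13, chromosome 11, 69580359 to 69591873) had 563, 538, 550, 724 and 530 counts in the Rosa26 livers at 3 weeks and 655, 552, 642, 612 and 576 at 6 months. The HIRA livers had 602, 622, 533, 665 and 598 counts at 3 weeks and 708, 702, 823, 619 and 748 at 6 months. The groups overlapped in each comparison, and the changes with time were -0.02 ± 0.08 (adjusted p 0.952) and 0.21 ± 0.08 (adjusted p 0.47). Mdm2 (ENSMUSG00000020184.15, chromosome 10, 117688875 to 117710758) had 603, 475, 603, 643 and 603 counts against 490, 454, 534, 474 and 435 in the Rosa26 arm, and 479, 659, 717, 706 and 675 against 513, 387, 652, 449 and 591 in the HIRA arm. The Rosa26 time points did not overlap once library size was taken into account, and the HIRA time points did. Mdm2 changed by -0.38 ± 0.13 (adjusted p 0.189) and -0.37 ± 0.13 (0.364) in the arms and fell by 0.37 ± 0.09 in their mean (adjusted p 0.0393), and it did not pass without any 1 of 16 libraries (adjusted p up to 0.0884). Without replicate 5 of the HIRA livers at 6 months the change in that arm was -0.48 for Mdm2 (0.129) and 0.14 for Trp53 (0.577).

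Among the 5 DNA repair members Polk, which encodes a polymerase that copies past damaged bases, fell in the mean over both arms by 0.48 ± 0.10 (adjusted p 0.0197), and gave -0.61 in the HIRA arm without replicate 5 at 6 months (0.108). Its time points did not overlap with either guide, at 90 to 141 counts against 77 to 101 with Rosa26 and 116 to 161 against 83 to 122 with HIRA, after scaling to library size. Ercc5, Xpc, Ddb2 and Rrm2b gave means from -0.21 to 0.18 with adjusted p-values of 0.108 to 0.898. Of the 10 members of metabolism and stress none passed. Sesn2, a sensor of amino acids, came closest at -0.47 ± 0.12 (adjusted p 0.0501) and passed without any 1 of 5 libraries (0.0209 to 0.0477), and Gdf15, a secreted stress factor, gave -0.26 ± 0.24 (0.678). Ddit4, Tigar, Sesn1, Dcxr, Abhd4, Sulf2, Pvt1 and Ak1 lay between -0.26 and 0.36 with adjusted p-values of at least 0.362. Sulf2 overlaps Ncoa3 on the opposite strand, and whether counting used the strand is not given.

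Separation of the libraries gave a similar picture. In the Rosa26 arm 8 members had all 5 libraries at 6 months below all 5 at 3 weeks (1.81% of all genes tested) and 1, Bbc3, had them above (1.69%). In the HIRA arm these numbers were 4 (0.691%) and 0 (0.778%). Cdkn1a, Eda2r and Polk were separated downward in both arms, 3 of 36 members, against 0.0656% of all genes. The arms share no library, and 21 of 36 members were lower at 6 months in both, against 25.8% of all genes tested. Across the 36 members the changes in the arms correlated with r = 0.83 (Pearson) and rho = 0.82 (Spearman), and across the 12903 genes of at least 1 CPM 0.35 and 0.31. These are descriptions across genes, which are not independent replicates and were scaled together.

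**Figure D3:**
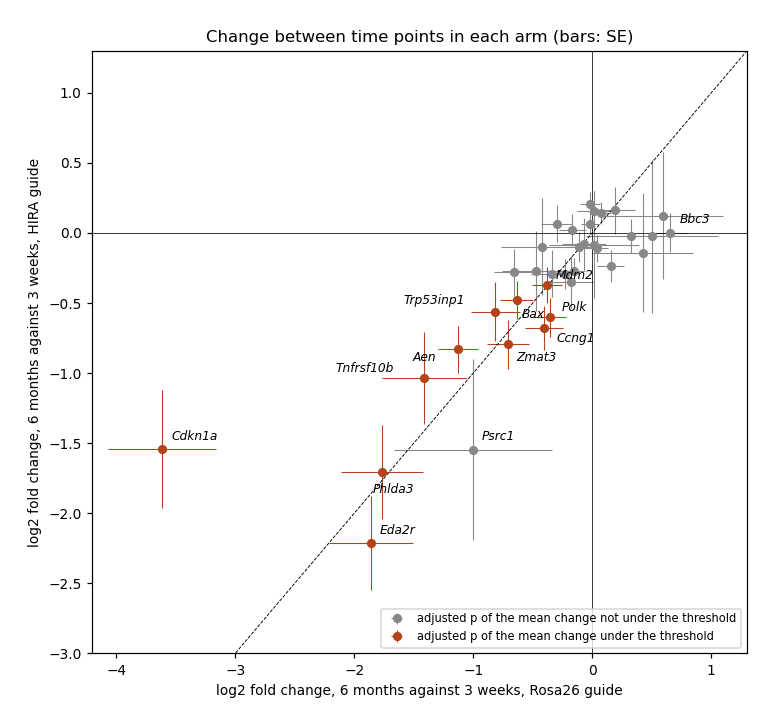
Log2 fold change between 6 months and 3 weeks of each of the 36 members with the Rosa26 guide (horizontal) and with the HIRA guide (vertical), with SE bars and the line of equal change dashed. The 11 members with an adjusted p under 0.05 for the mean of both arms (red) lie in the lower left, with Cdkn1a at -3.61 and -1.54 the farthest from the line, and Bbc3 lies at 0.66 and 0.00.

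The guide effect, HIRA against Rosa26 at the same time, addresses how these genes responded to targeting of Hira. At 3 weeks 0 of 36 members were called, against 0.114% of all genes tested, and DESeq2 called 0 of 36 against 0.445% of the genes to which it gave an adjusted p. An unadjusted p under 0.05 was reached by 5 members, against 8.87% of all genes, 2 lower and 3 higher. The smallest adjusted p was that of Fas, which encodes a death receptor, at -0.47 ± 0.11 (0.0911), and by DESeq2 it passed at 0.0138. Cdkn1a gave -1.25 ± 0.40 (adjusted p 0.266), with replicate 3 of the HIRA livers, at 1328 counts, inside the range of the Rosa26 livers. Without that library Cdkn1a gave -1.82 ± 0.37 (adjusted p 0.0389) and Fas -0.56 ± 0.11 (0.0338). Eda2r gave 0.85 ± 0.31 (adjusted p 0.389), Trp53 0.02 ± 0.08 (0.977) and Mdm2 0.11 ± 0.13 (0.883). No member was separated, 0 higher against 1.45% of all genes and 0 lower against 1.24%. The median over the members was 0.10, beside -0.01 over all genes.

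At 6 months 0 of 36 members were called, against 0.332% of all genes, DESeq2 called 0 of 36 against 0.882%, and 8 reached an unadjusted p under 0.05, against 15.5% of all genes. By adjusted p alone 1 of 36 passed, against 1.31%. This was Bbc3, which was lower in the HIRA livers by 0.69 ± 0.14 (adjusted p 0.0204), at 287 to 415 counts against 491 to 666. It did not pass without replicate 4 of the Rosa26 livers (-0.62, adjusted p 0.073) or when the 2 groups compared were fitted alone (-0.69, 0.0848), and passed without replicate 5 of the HIRA livers (-0.72, 0.0202). This comparison and the change of Bbc3 with time in the Rosa26 arm share the Rosa26 livers at 6 months. Cdkn1a gave 0.82 ± 0.44 (adjusted p 0.383), Tnfrsf10b 0.98 ± 0.36 (0.181) and Trp53 0.25 ± 0.08 (0.142). Without replicate 5 of the HIRA livers these were 0.97 (0.266), 1.09 (0.136) and 0.19 (0.227). Bbc3 and Fas were separated downward, 2 members against 1.74% of all genes, and Tigar, a regulator of glycolysis, upward, 1 member against 1.41%. The median was 0.06 over the members and 0.03 over all genes.

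Tested for a change of the guide effect between 3 weeks and 6 months, the contrast was called for 0 of 36 members and for 0% of all genes, with edgeR and with DESeq2, and 3 members reached an unadjusted p under 0.05, against 6.62% of all genes. The members with the largest differences were Cdkn1a at 2.07 ± 0.59 and Bbc3 at -0.65 ± 0.20, both with an adjusted p of 0.614.

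**Figure D4:**
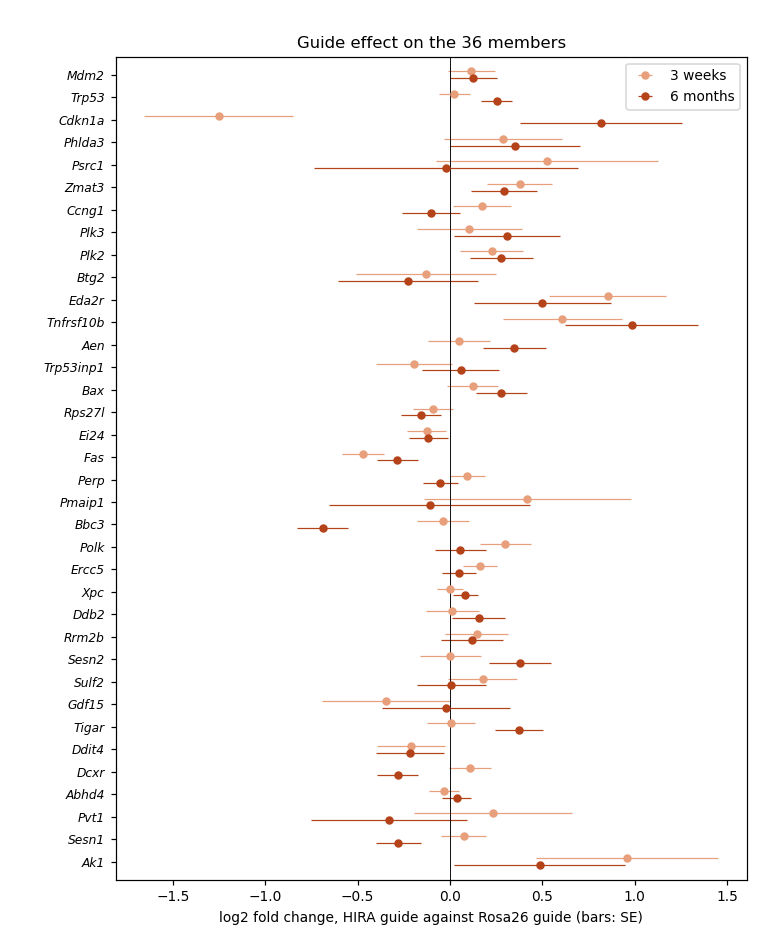
Log2 fold change of the HIRA guide against the Rosa26 guide for each of the 36 members at 3 weeks (light) and 6 months (dark), with SE bars, grouped by role in the order of the heat map. Cdkn1a goes from -1.25 at 3 weeks to 0.82 at 6 months.

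Genes of the circadian clock are given beside Cdkn1a, since both passed with time in the Rosa26 arm. Dbp, a clock output gene that cycles in liver, had 30 to 76 counts in the Rosa26 livers at 3 weeks, 187 to 2372 in the HIRA livers at 3 weeks, 395 to 2211 in the Rosa26 livers at 6 months and 96 to 2264 in the HIRA livers at 6 months. Of 14 clock genes 5 were called at 3 weeks between the guides, all higher with HIRA, 4 between the time points with Rosa26, all higher at 6 months, and none between the time points with HIRA. In the Rosa26 livers at 3 weeks, Dbp counts of 30, 32, 52, 39 and 76 went with 1031, 829, 1571, 2676 and 978 Cdkn1a counts. In the HIRA livers at 3 weeks, replicate 3 had the fewest Dbp counts, 187, and the most Cdkn1a counts, 1328. Replicate 4 had the most Dbp counts, 2372, and 541 Cdkn1a counts. Replicates 1, 2 and 5, at 826 to 1158 Dbp counts, had 321 to 413. In the HIRA livers at 6 months the libraries with 96, 495 and 887 Dbp counts had 334, 309 and 281 Cdkn1a counts, and those with 2252 and 2264 had 75 and 104. In the Rosa26 livers at 6 months the highest Dbp count, 2211, went with the highest Cdkn1a count, 217. The part of harvest time in the values of Cdkn1a and of the other members was not tested, and the labels give no hour. The Rosa26 livers at 3 weeks enter 3 comparisons of all 36 members. These are the change with time in that arm, the mean over both arms and the guide effect at 3 weeks.

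**Figure D5:**
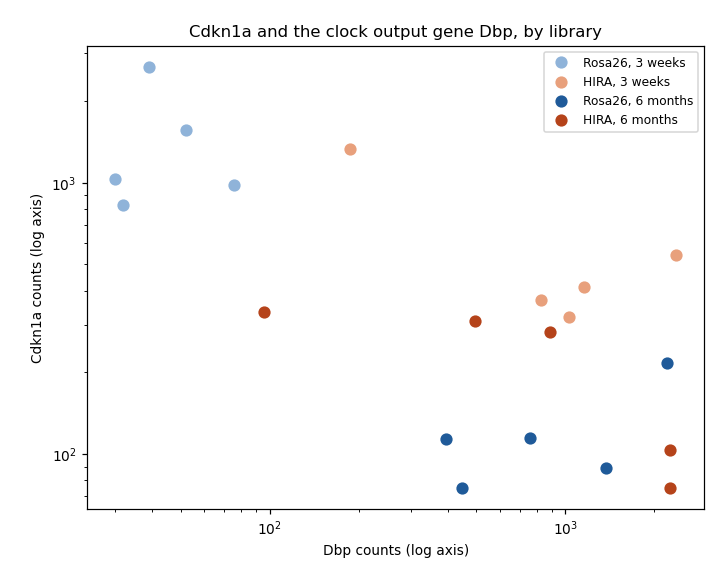
Counts of Cdkn1a (vertical, log axis) against counts of Dbp (horizontal, log axis) in each of the 20 libraries, coloured by group. The Rosa26 livers at 3 weeks lie apart at 30 to 76 Dbp counts and 829 to 2676 Cdkn1a counts. The HIRA livers at 3 weeks lie at 187 to 2372 Dbp counts and 321 to 1328 Cdkn1a counts. The livers at 6 months lie at 96 to 2264 Dbp counts and 75 to 334 Cdkn1a counts.

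Libraries of a group differed in the level of the members as a whole. The mean of the 36 centred log2 CPM values was 0.16 ± 0.17 in the Rosa26 livers at 3 weeks, 0.24 ± 0.17 in the HIRA livers at 3 weeks, -0.24 ± 0.15 in the Rosa26 livers at 6 months and -0.16 ± 0.19 in the HIRA livers at 6 months (SD, n = 5). Replicate 3 had the highest mean of its group in all 4 groups. It stood at 0.30 (Rosa26) and 0.45 (HIRA) at 3 weeks, and at -0.0006 and 0.17 at 6 months. Whether livers with this number shared a factor was not tested. Replicate 2 of the Rosa26 livers at 3 weeks, at -0.11, and replicate 3 of the HIRA livers at 6 months, at 0.17, crossed toward the other time. The former was the lowest of its group in 19 of 36 members and in 27.3% of all genes, and the latter was the highest of its group in 15 of 36 members and in 25.5% of all genes. Without the latter, Phlda3 (-2.10, adjusted p 0.00641), Zmat3 (-0.99, 0.00641), Tnfrsf10b (-1.52, 0.0268) and Aen (-0.93, 0.0258) also passed in the HIRA arm.

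Per kilobase of merged exon, the levels of the members in the Rosa26 livers at 3 weeks ranged from 0.114 ± 0.062 CPM per kb for Ak1 to 169 ± 11.5 for Rps27l (SD, n = 5), over the 35 members with a matched annotation. Dcxr, at 78.9 ± 10.2, and Perp, at 60.4 ± 2.02, followed. Cdkn1a was the fifth at 18.7 ± 9.17 at 3 weeks and stood at 1.53 ± 0.645 at 6 months in the same arm. Eda2r was 29th of the 35 in that group, at 0.365 ± 0.124 with Rosa26 and 0.661 ± 0.321 with HIRA at 3 weeks, and at 0.142 ± 0.052 with HIRA at 6 months. Trp53 held 6.73 to 8.01 in the group means and Mdm2 4.21 to 5.93.

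Of 30 other p53 targets 29 were tested and 1 of these, Gadd45a, a stress gene of growth arrest, rose with time in the Rosa26 arm by 1.45 ± 0.25 (adjusted p 0.021), at 83 to 117 counts against 183 to 395. None of the 29 passed with time in the HIRA arm, and Gadd45a alone passed in the mean over both (0.96 ± 0.18, adjusted p 0.0111). Their median change was -0.04, 0.03 and -0.01. Between the guides Sertad1, a cell cycle regulator, was higher with HIRA at 3 weeks by 0.88 ± 0.16 (adjusted p 0.0302), and Triap1, an inhibitor of apoptosis, was lower at 6 months by 0.41 ± 0.10 (adjusted p 0.0365). Of 17 tested regulators of p53 Cdkn2a, the gene of p16 and p19ARF, passed in the mean over both arms only, higher at 6 months by 2.54 ± 0.43 (adjusted p 0.00567), at 0 to 6 counts a library against 6 to 61. None of the 15 cell cycle genes known to be repressed through p53 and p21 passed in any comparison, and their summed level was 28.2 to 58.7 CPM in the Rosa26 and 36.1 to 60.2 in the HIRA livers at 3 weeks, and 22.1 to 71.7 and 25.9 to 70.1 at 6 months. Their median change was 0.41 between the guides at 3 weeks (4 of 15 lower) and 0.23 at 6 months, and with time -0.10 in the Rosa26 arm and -0.36 in the HIRA arm (11 of 15 lower). None of 8 ATF4 and stress genes passed.

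Markers of the cells in liver were examined as well. None of the 8 hepatocyte, 6 cholangiocyte, 6 Kupffer cell, 8 lymphocyte, 5 endothelial or 6 stellate cell markers passed the adjusted threshold in any comparison, and none was at 0 in all libraries. All 8 lymphocyte markers were higher at 6 months in the mean over both arms, each with an unadjusted p under 0.05, and their summed level was 7.99 to 15.2 CPM in the Rosa26 and 12.9 to 20.8 in the HIRA livers at 3 weeks against 8.85 to 33.7 and 8.44 to 44.6 at 6 months. All 8 hepatocyte markers were lower in that mean, by a median of 0.16, and 4 of the 5 endothelial markers were lower, with a median of -0.35. The 6 stellate cell markers had a median of 0.31 and the 6 Kupffer cell markers of 0.21, 1 of each lower, and the 6 cholangiocyte markers of -0.04. Single libraries stretched these: the summed Kupffer cell level ran from 213 to 361 CPM in the Rosa26 livers at 3 weeks and from 132 to 896 at 6 months, where its median of 145 lay below that whole earlier range, its medians in the HIRA livers were 263 and 243, and the summed stellate cell level in the HIRA livers at 6 months had a median of 327 and a highest value of 764. Between the guides all 8 lymphocyte markers were higher with HIRA at 3 weeks (median 0.62, 2 of 8 without overlap) and at 6 months (0.48), as were all 6 stellate cell (0.50) and all 5 endothelial markers (0.32) at 6 months. Their part in the changes of the members was not tested.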

How the data were processed

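Liver RNA from 20 mice was sequenced in 4 groups of 5. The deposited table holds raw counts per gene, which the authors made from reads aligned to mm10, and the submitters' processing notes name STAR, HTSeq and Cufflinks, while the methods of the study name HOMER for counting. The authors also deposited FPKM values, used here in an alternative only. Whether counting used the strand is not given in the sources used here. The labels and a figure legend of the study call the mice female, and 1 sentence of its text male.

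Genes with at least 10 counts in total were fitted with edgeR 4.0.16 (quasi-likelihood, TMM scaling, 4 group means, all 20 libraries, R 4.3.3), with Benjamini-Hochberg adjustment over all genes tested. Total counts were 19916430 to 24079736, and low members rest on few counts. The SE did not follow the counts alone, and the reason was not tested. With time in the Rosa26 arm it was 0.45 for Cdkn1a, 0.35 for the scarcer Eda2r and 0.66 for the scarce Psrc1. Alternatives were DESeq2 1.42.0, other scalings and filters, limma 3.58.1 on log2 FPKM plus 1 or 0.1, a replicate block, a fit of the 2 groups compared and leaving out each library. The mean over both arms was added after the data were seen. The fit was checked on simulated data. The members and lists were chosen with earlier results of these data known. Per-library values were given for Trp53, Mdm2, Cdkn1a and members with an adjusted p under 0.05 in 1 of the 5 planned comparisons, and other members by ranges, counts and at most 4 examples a role. Genes of the lists were named where they passed. Replicates were separate mice. Replicate numbers were not taken as pairs. Promoter windows came from RefSeq (GRCm38.p6).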

Additional observations from a re-analysis of the deposited data

Results flagged for a closer look

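Sets of 5 libraries (a member in a group) were examined for Trp53 and the members with an adjusted p under 0.05 in a comparison. Of these 52 sets, 6 had 1 library far from the other 4, with a gap of more than 0.71 of the range. Chance gives about 1 in 20 for independent sets, but these share libraries, so that rate does not apply to them. Replicate 2 of the Rosa26 livers at 3 weeks was the lowest for Phlda3 at 1.19 log2 CPM (nearest other library 2.34), for Eda2r at 0.06 (1.18) and for Aen at 3.69 (4.03). Replicate 3 of the HIRA livers at 6 months was the highest for Phlda3 at 1.92 (0.76) and for Tnfrsf10b at 1.0 (-0.40). Replicate 1 of the HIRA livers at 3 weeks was the lowest for Mdm2 at 4.47 (4.95).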

How the results depend on the processing

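No change with an adjusted p under 0.05 turned direction under any alternative run, while small changes that had not passed did, such as Bbc3 with time in the HIRA arm (0.0025, and -0.0028 with DESeq2). The number of members called with time in the Rosa26 arm, 4, was 1 with limma on either FPKM scale and 5 with DESeq2. In the HIRA arm it was 1, and became 2 with DESeq2 and with no low-count filter, and 0 with limma on either FPKM scale and with only the 2 groups compared, where Eda2r had an adjusted p of 0.0521. In the mean over both arms it was 4, and became 2 with limma on FPKM plus 1 and 11 without the fold threshold. Between the guides at 6 months it was 0, and 1 without the fold threshold, and Bbc3 had an adjusted p of 0.0848 with only the 2 groups compared. Leaving out 1 library gave 0 to 1 members called between the guides at 3 weeks (1 without replicate 3 of the HIRA livers at 3 weeks), 1 to 5 with time in the Rosa26 arm (1 without replicate 4 at 6 months), 1 to 3 in the HIRA arm (3 without replicate 3 at 6 months) and 4 to 5 in their mean. The causes were not tested.

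Over all genes, calls between the guides numbered 26 at 3 weeks (64 with DESeq2, 2 and 4 with FPKM plus 1 and 0.1, 67 with only the 2 groups, 45 without the fold threshold) and 76 at 6 months (127, 8 and 20, 0 and 299). With time they numbered 37 in the Rosa26 arm (157, 1 and 2, 77 and 74), 13 in the HIRA arm (74 with DESeq2, 25 with no low-count filter, 1 with either FPKM scale) and 135 in the mean (204 with DESeq2, 16 and 35 with FPKM, 312 without the fold threshold). Leaving out 1 library gave 3 to 43 and 18 to 109 between the guides at 3 weeks and 6 months, and with time 2 to 83 in the Rosa26 arm, 5 to 25 in the HIRA arm and 73 to 180 in the mean, so the shares over all genes set beside the members move by as much. The lowest were without replicate 4 or 5 of the HIRA livers at 3 weeks (3), replicate 4 of the Rosa26 livers at 6 months (18 and 2), replicate 2, 4 or 5 of the HIRA livers at 3 weeks (5) and replicate 4 of the Rosa26 livers at 3 weeks (73).

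With the replicate number as a block, 5 members were called with time in the Rosa26 arm and 2 in the HIRA arm, and 61 and 26 genes in all. By adjusted p alone 8 and 5 members passed with this block, in the HIRA arm Phlda3, Zmat3, Aen, Ccng1 and Eda2r. Of 30 pairs of livers with the same number 14 had a correlation of deviations over 0.1 (-0.31 to 0.33 over 12903 genes), and those of number 3 had 0.02 to 0.33. Since every pair would have to be over 0.1, the numbers were not taken as a pairing.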
